A study of Mus musculus with 12 samples.

Results

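Zinc finger genes named Zfp500 to Zfp999 form a slice of the largest family of mouse DNA-binding proteins, and 169 of the 20620 genes in the deposited count table carry such a name. Members were all gene entries with a symbol from Zfp500 to Zfp999, with repeat copies left out, a rule that reads names and no counts. RNA and ribosome footprints were sequenced from testes of C57BL/6 mice at postnatal day 16 (P16). The animals were either Mael+/-, which served as controls and carry 1 working copy of Maelstrom, or Mael-/-, which lack this piRNA pathway protein and lose control of the retrotransposon LINE-1 in spermatocytes. Each genotype gave 3 extracts, and each extract gave 1 RNA library and 1 footprint library, so there were 4 groups of 3 and 12 libraries. All animals shared strain and age, and none was wild type. Whole testes were used, so fewer cells of a type and less RNA per cell cannot be told apart. Genotype effects on these genes bear on the question of what happens to host mRNAs and their translation when L1 escapes control.

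Gene counts totalled 13697267 to 27462358 per RNA library and 7609932 to 13233565 per footprint library. The members received 61491 to 118656 counts of each RNA library, which was 0.4285 to 0.4527% of its gene counts, and 30649 to 46657 counts of each footprint library, which was 0.3494 to 0.4099%. Mael itself had 5045, 4314 and 3800 RNA counts in Mael+/- extracts and 1, 2 and 0 in Mael-/- extracts. Its footprint counts were 1294, 660 and 863 in Mael+/- and 0, 0 and 7 in Mael-/- extracts, so the libraries of both assays matched their genotype labels. The first Mael+/- extract stood apart. Its summed RNA level of 12 pachytene spermatocyte markers was 1012 CPM (gene counts scaled to a common library size, per 1000000 counts), against 344 and 380 in the other Mael+/- extracts and 280 to 319 in Mael-/- extracts, with none of the 12 at 0 in every library. Its 7 measured markers of early meiotic prophase summed to 984 CPM, against 434 to 607 in the other extracts, again with none at 0. Sertoli cell markers summed to 5941 to 6751 CPM over all RNA libraries, while 5 round spermatid markers summed to 6.12 to 8.28 CPM and Prm1 was at 0 in all 12 libraries. Spermatogonial markers summed to 972 to 1197 CPM, Leydig cell markers to 272 to 539 CPM and macrophage markers to 63.9 to 102 CPM.

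A classical zinc finger is a short loop held by 1 zinc ion between a pair of cysteines and a pair of histidines, and successive fingers read successive bases of DNA. In many mammalian zinc finger proteins the row of fingers follows a Krüppel-associated box (KRAB). The KRAB box binds the scaffold protein TRIM28, which brings the histone methyltransferase SETDB1 and heterochromatin proteins to the bound site. KRAB zinc finger genes lie in clusters of similar copies, and a number of them silence retrotransposons, the class of element that L1 belongs to. Zinc finger proteins without a KRAB box are more diverse, and include transcription factors and subunits of chromatin complexes.

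Fingers are shown for members at the high and low ends of the footprint to RNA ratio described further on. They are shown because GC content of the coding sequence went with that ratio across members. The ends are those of the ratio before lengths were taken into account. Per kilobase, Zfp597 stood at 0.47 in Mael+/- testes, above the members' median of 0.37, while Zfp664 and Zfp850 stood below it. Each is the first finger of a fixed spacing that lies within 1 coding exon. Zfp703 and Zfp609 at the high end and Zfp740 and Zfp704 at the low end were passed over for having too few fingers of that spacing, or none within 1 coding exon. Sequences are from RefSeq annotation on GRCm38.p6, written 5′ to 3′ on the coding strand and each within 1 coding exon, with the codons of the zinc-binding cysteines and histidines in capitals. Zfp628 (chr7:4918886-4918948, plus strand, 60.3% GC), Zfp865 (chr7:5029681-5029743, plus strand, 49.2% GC) and Zfp579 (chr7:4994707-4994769, minus strand, 61.9% GC) are at the high end. Zfp664 (chr5:124885556-124885618, plus strand, 41.3% GC), Zfp597 (chr16:3866360-3866422, minus strand, 36.5% GC) and Zfp850 (chr7:27990116-27990178, minus strand, 42.9% GC) are at the low end.
Zfp628: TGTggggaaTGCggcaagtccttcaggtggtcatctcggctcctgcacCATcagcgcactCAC
Zfp865: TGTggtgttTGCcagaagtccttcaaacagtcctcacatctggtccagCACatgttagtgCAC
Zfp579: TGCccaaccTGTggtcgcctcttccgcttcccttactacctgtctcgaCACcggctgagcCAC
Zfp664: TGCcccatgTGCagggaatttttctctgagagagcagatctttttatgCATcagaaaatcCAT
Zfp597: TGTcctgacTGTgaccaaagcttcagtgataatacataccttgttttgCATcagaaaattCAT
Zfp850: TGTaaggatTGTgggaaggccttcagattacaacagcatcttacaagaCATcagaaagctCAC
The search took only fingers with 2 residues between the cysteines, 12 up to the first histidine and 3 between the histidines. Length and spacing of the 6 stretches, 63 bases with 4 capital codons each, therefore come from the search.

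The KRAB box is shown for Zfp809 and Zfp568, whose targets are known from genetics. ZFP809 recognizes the primer binding site of murine leukaemia viruses and related proviruses, and ZFP568 represses a placental transcript of Igf2. Capitals mark codons of residues identical to the family consensus, which was derived from the annotated Zfp proteins themselves. The stretches of 120 bases are at chr9:22235026-22235145 for Zfp809 (plus strand, 57.5% GC) and at chr7:29997756-29997875 for Zfp568 (plus strand, 52.5% GC).
Zfp809: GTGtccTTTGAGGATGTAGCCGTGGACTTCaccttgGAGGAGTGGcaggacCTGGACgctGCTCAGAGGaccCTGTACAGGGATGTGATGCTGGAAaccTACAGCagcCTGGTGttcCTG
Zfp568: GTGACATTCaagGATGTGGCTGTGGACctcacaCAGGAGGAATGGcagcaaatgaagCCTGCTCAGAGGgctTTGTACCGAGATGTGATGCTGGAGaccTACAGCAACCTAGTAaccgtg
The box of Zfp809 holds 30 such codons of 40 and that of Zfp568 holds 29.

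A KRAB box was found by sequence in 101 of the 168 members with RefSeq annotation, and 67 lacked one. Zfp607 had no annotation entry. Proteins with a KRAB box held a median of 12 fingers and the others a median of 7, with 33 fingers in Zfp619 as the most. Chromosome 7 carries 47 members, chromosome 17 carries 22, chromosome 8 carries 16, and chromosomes 9 and 13 carry 11 each. All 11 members on chromosome 13 and 20 of the 22 on chromosome 17 have the box. Of the members, 74 lie within 100 kb of another member, and 60 of these are KRAB genes. Coding sequence of KRAB members had a median GC content of 42.5%, against 57.6% in the others. Footprints are short, and the coding sequence of 20 members was unique in the genome over less than 50% of its 30-base words. Counts of these 20, which include Zfp617, Zfp706 and Zfp932, are uncertain because reads may be shared with near-identical copies. At least 90% of the words were unique in 118 members.

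Of the 169 members, 160 passed the filter on low counts in RNA and 129 passed it in footprints, and all 129 also passed in RNA. No count fell on Zfp616 or Zfp735 in any library. The other members under the RNA filter were Zfp534, Zfp575, Zfp663, Zfp781, Zfp957, Zfp959 and Zfp960. KRAB genes made up 34 of the 40 members not tested in footprints. Median RNA abundance in Mael+/- testes, per kilobase of mRNA, was 1.43 CPM over the 101 KRAB members and 9.29 CPM over the 67 others.

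The member with the highest RNA level per kilobase was Zfp644, whose product joins the histone methyltransferases G9a and GLP, with 46.1 ± 2.69 CPM per kilobase in Mael+/- testes (SD, n = 3). Zfp740 followed with 39.3 ± 4.64 CPM per kilobase, Zfp523 with 36.7 ± 3.85, Zfp687 with 34.8 ± 2.24 and Zfp622 with 33.5 ± 2.05. From Zfp740 to Zfp622 each gene differed from the next by less than the SD. Zfp639 at 26.6 ± 2.97, Zfp646 at 24.1 ± 2.83 and Zfp771 at 24.1 ± 3.11 CPM per kilobase came next and also lay within their spread. None of the 8 genes has a KRAB box. Before length was taken into account, Zfp644 led in RNA, with 303, 285 and 320 CPM in Mael+/- and 306, 288 and 280 CPM in Mael-/- extracts. In footprints Zfp687, a partner of the chromatin reader ZMYND8, led with 276, 282 and 215 CPM in Mael+/- and 216, 239 and 226 CPM in Mael-/- extracts.

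**Figure D1:**
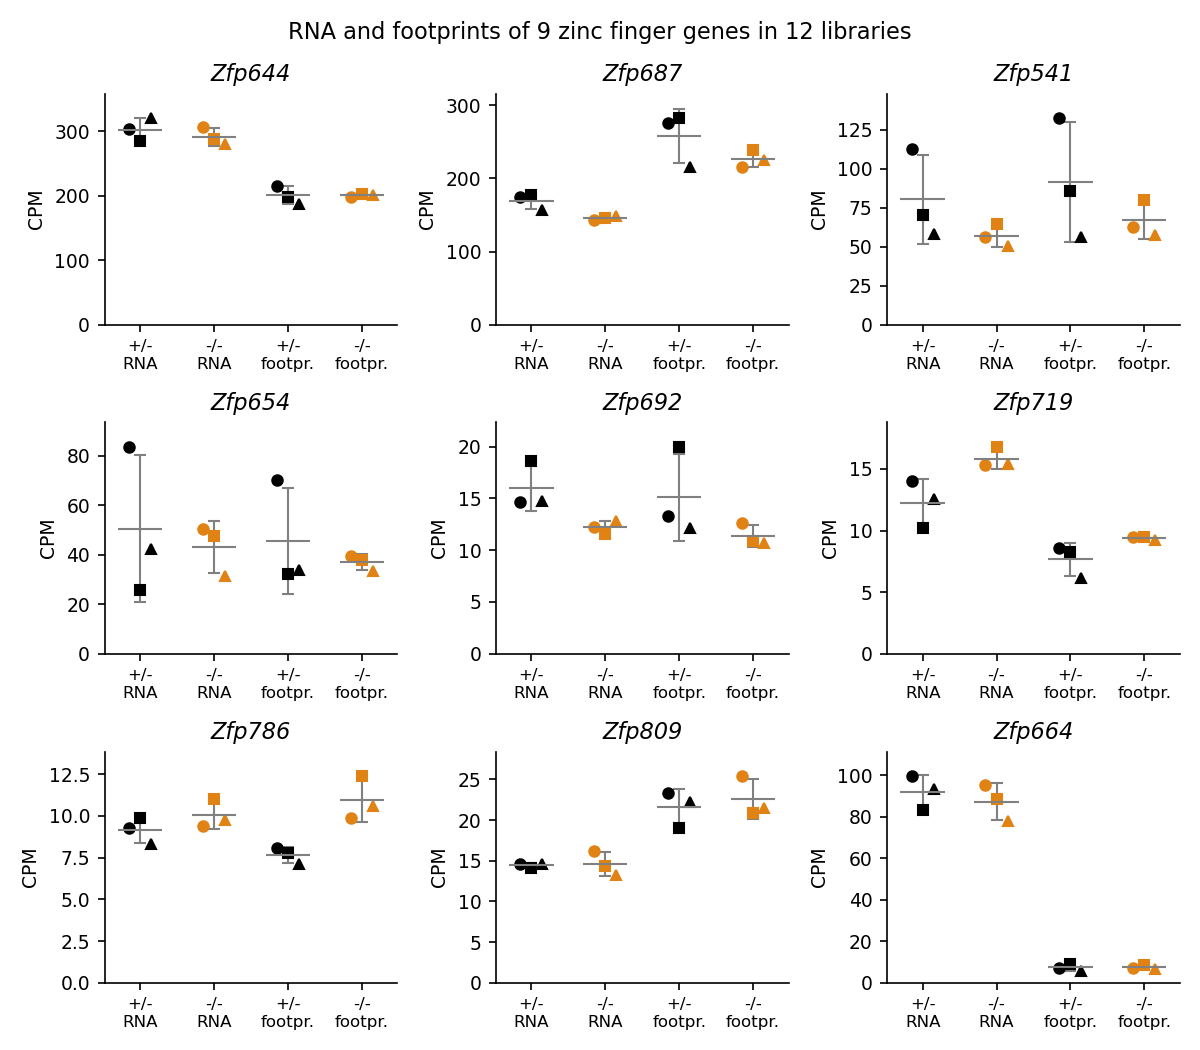
Scaled counts (CPM, vertical axis of each panel, starting at 0) of 9 members in RNA and footprints of Mael+/- (black) and Mael-/- (orange) testes. Circles, squares and triangles are extracts 1, 2 and 3, horizontal lines are means and bars are SD (n = 3). Extract 1 of Mael+/- is the high point of Zfp541 and Zfp654, genotypes are separate for Zfp692 and Zfp719 RNA and Zfp786 footprints, and Zfp664 has far fewer footprint than RNA CPM.

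Loss of Mael left the RNA of these genes close to its level in heterozygotes. No member of the 160 tested was called between genotypes by edgeR's quasi-likelihood test at an adjusted p under 0.05, where 0.116% of the 14685 genes tested were called, and DESeq2 called none of the members either, against 0.395% of genes. At an unadjusted p under 0.05 there were 7 members, against 5.4% of all genes. Their median log2 fold change (Mael-/- over Mael+/-) was -0.01, beside -0.001 for all genes, and single members ran from -0.67 to 0.47. Members were split into 77 above 0 and 83 below. The 95% confidence interval lay within a 2-fold change either way for 147 of the 160, 91.9% beside 88.7% of all genes.

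The 7 members at an unadjusted p under 0.05 were chosen for description after their values were seen. Zfp692 had 14.7, 18.6 and 14.8 CPM in Mael+/- and 12.2, 11.6 and 12.8 CPM in Mael-/- RNA. All Mael-/- libraries of Zfp692 lay below all Mael+/- libraries, with a log2 fold change of -0.39 ± 0.14 (SE), and edgeR's adjusted p of 0.846 was the smallest among the members. Zfp687 had 175, 177 and 157 CPM against 143, 146 and 149 CPM, again without overlap (log2 fold change -0.22 ± 0.08). Zfp719, a KRAB gene, had 14.1, 10.2 and 12.5 CPM in Mael+/- and 15.4, 16.8 and 15.4 CPM in Mael-/- RNA, the largest of these changes upwards (0.37 ± 0.14). Zfp622, a factor in maturation of the large ribosomal subunit, was the other with a positive value, 0.20 ± 0.09. Zfp592 and Zfp609 had values of -0.34 ± 0.13 and -0.28 ± 0.12, and both were smaller, -0.19 and -0.17, without the first Mael+/- extract.

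Zfp541, a germ cell protein needed to complete meiotic prophase in males, had 112, 70.5 and 58.0 CPM in Mael+/- and 56.1, 64.4 and 50.3 CPM in Mael-/- RNA. Its groups overlapped, and the high value was that of the first Mael+/- extract, the one with the high pachytene markers. With that extract the log2 fold change was -0.50 ± 0.21 in RNA and -0.45 ± 0.25 in footprints, and without it -0.18 and -0.08. Zfp592 moved in the same way, with -0.34 and -0.28 in RNA and footprints with that extract and -0.19 and -0.13 without it. The part of the meiotic cells in these values was not tested.

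Over the 160 members, RNA of 7 was higher and of 10 lower in Mael-/- extracts without any overlap between genotypes, that is 4.38% and 6.25% of members, where 5.23% and 5.03% of all tested genes did so. The higher 7 comprised 5 KRAB genes and the lower 10 comprised 4. Both shares were near the background. By the rule for named genes, the non-overlapping members with the largest upward values were Zfp617 (0.42), Zfp953 (0.39), Zfp719, Zfp954 (0.35) and Zfp563 (0.29), all KRAB genes. The largest downward values were those of Zfp692, Zfp773 (-0.37), Zfp592, Zfp784 (-0.31) and Zfp956 (-0.30), of which Zfp773 and Zfp956 are KRAB genes. Without the first Mael+/- extract the value of Zfp956 was -0.12.

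Footprints gave the same picture. No member of 129 was called (0.0593% of 13500 genes were), DESeq2 also called none (0.156% of genes), and 4 members had an unadjusted p under 0.05, against 4.33% of genes. The median log2 fold change was -0.01 for the members and -0.01 for all genes, over a range from -0.58 to 0.92. The interval stayed within a 2-fold change for 114 of 129, 88.4% beside 90.9% of all genes. The share was 80.6% of KRAB members and 96.7% of the others. Zfp786, a KRAB gene, had 8.07, 7.77 and 7.13 footprint CPM in Mael+/- and 9.85, 12.4 and 10.6 CPM in Mael-/- extracts. These groups did not overlap, the log2 fold change was 0.51 ± 0.17, and edgeR's adjusted p was 0.972, the smallest among members. Its RNA overlapped, with 9.28, 9.88 and 8.31 CPM against 9.39, 11.0 and 9.78 CPM. The largest footprint values came from very few reads. Zfp709 had 10, 7 and 8 footprint counts in Mael+/- and 22, 20 and 13 in Mael-/- libraries (0.92 ± 0.33), and Zfp882 had 9, 6 and 10 against 16, 23 and 13 (0.86 ± 0.37). Zfp775, without a KRAB box, had 6.80, 6.86 and 6.83 CPM in Mael+/- and 5.38, 4.79 and 5.23 CPM in Mael-/- footprints (-0.41 ± 0.18).

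Footprints of 11 members were higher in every Mael-/- than in every Mael+/- library. That is 8.53% of members, against 4.24% of all tested genes and 5.88% of the lower-numbered genes Zfp1 to Zfp499. Of these 11, 10 were KRAB genes. The filter on low counts keeps a gene that reaches its cutoff in either genotype alone. Zfp882, among the 11, passed through its Mael-/- libraries only, so this share partly follows from the filter for members with few reads. With a mean of at least 50 footprint counts, the median footprint change (log2) was 0.09 over 25 KRAB members and -0.06 over 58 others. Footprints of 5 members were lower without overlap, 1 of them a KRAB gene. That is 3.88%, against 4.85% of genes and 4.41% of Zfp1 to Zfp499. Beside Zfp786 and Zfp719, the named genes with higher footprints were Zfp763 (0.39 ± 0.26), Zfp799 (0.36 ± 0.23) and Zfp868 (0.33 ± 0.28), and those with lower footprints were Zfp592, Zfp511 (-0.24 ± 0.15), Zfp689 (-0.23 ± 0.16) and Zfp513 (-0.08 ± 0.10) beside Zfp775. In Zfp1 to Zfp499 the median footprint change (log2) of 72 KRAB genes was 0.04, with 45 above 0. That of 63 others was -0.008, with 29 above 0. Among members, the median footprint change of the 67 KRAB members was 0.10 (log2), with 42 above 0. The median of the 61 other members was -0.07, with 18 above 0. With each extract left out in turn the footprint medians ran from 0.06 to 0.12 for KRAB members and from -0.12 to -0.02 for the others. The RNA medians of the classes were 0.03 and -0.05, and that of KRAB members was -0.02 without Mael+/- extract 2 and -0.04 without Mael-/- extract 1. Per library, the median deviation of KRAB members from their own mean was 0.002, -0.03 and -0.11 in Mael+/- footprints and 0.005, 0.11 and 0.05 in Mael-/- footprints, so the groups were next to each other but did not overlap. Medians of the other members overlapped between genotypes in footprints, and those of KRAB members overlapped in RNA. The classes differ in read depth, and no test was made of the difference between them.

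**Figure D2:**
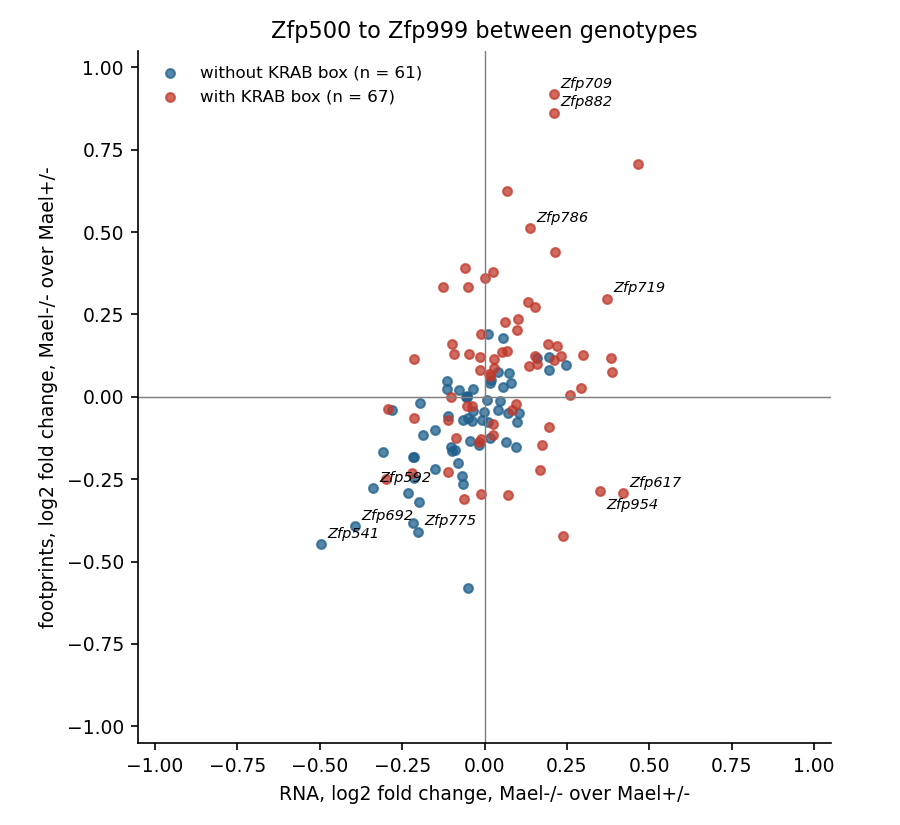
Each point is 1 of the 128 annotated members tested in both assays, with its log2 fold change (Mael-/- over Mael+/-) in RNA on the horizontal and in footprints on the vertical axis. Both values come from the same extracts. KRAB members (red, n = 67) spread further in footprints than the others (blue, n = 61), and Zfp709 and Zfp882, at 6 to 23 counts per library, are the highest.

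Translation efficiency, the change of footprints beyond that of RNA, was tested as the interaction of genotype and assay. No member of 129 and none of the 13448 genes (0%) was called, by edgeR or by DESeq2. No member had an unadjusted p under 0.05, against 0.394% of genes. That share is far below the threshold itself. The fit did not pair RNA and footprints of an extract and was conservative, so its lack of calls says little. When each extract was entered as a block, calls stayed at 0, while 2 members, Zfp706 and Zfp786, and 281 of all genes had an unadjusted p under 0.05. The median log2 change of translation efficiency was -0.02 for the members. Its 95% confidence interval lay within a 2-fold change for 103 of 129 members, 79.8% beside 87.0% of all genes. With the block it did so for 114, 88.4% beside 93.0%. Without the block the share was 65.7% of the 67 KRAB members and 96.7% of the 61 others, so many KRAB members were not bounded to a 2-fold change.

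Members with a known role were listed by function. Of the germ line genes, Zfp628, which is needed for spermatid differentiation, had 9.15, 10.2 and 9.29 RNA CPM against 10.6, 8.92 and 8.43 CPM (log2 fold change -0.04 ± 0.15, and -0.08 without the first Mael+/- extract). Zfp819, a KRAB gene of spermatogenic cells, stayed between 1.56 and 2.68 CPM in all RNA libraries. Of the retroelement silencers, Zfp809 had 14.6, 14.1 and 14.6 CPM in Mael+/- and 16.2, 14.3 and 13.2 CPM in Mael-/- RNA, and its footprints had 23.4, 19.0 and 22.3 CPM against 25.4, 20.9 and 21.5 CPM. Its log2 fold changes were 0.01 ± 0.12 in RNA and 0.07 ± 0.13 in footprints, with both sets overlapping, and without the first Mael+/- extract they were 0.02 and 0.13. Zfp708 and Zfp932, which repress other retroelements, were scarce at 0.70 to 2.23 and 0.38 to 0.62 RNA CPM and were not tested in footprints.

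Of the 11 members listed for chromatin and transcription complexes, none was called in either assay. Zfp532, Zfp592 and Zfp687, whose products form a complex with ZMYND8, had RNA fold changes of -0.06, -0.34 and -0.22 (log2) and footprint fold changes of -0.07, -0.28 and -0.18. Zfp644 had -0.06 ± 0.08 in RNA and -0.001 ± 0.09 in footprints, the narrow errors of a gene with many reads. Zfp711, an X-linked partner of the demethylase PHF8, had 107, 72.9 and 98.0 CPM against 108, 92.4 and 93.0 CPM. The other listed genes were Zfp608, Zfp609, Zfp618, Zfp668, Zfp746 and Zfp827, with RNA values between -0.28 (Zfp609) and -0.03 (Zfp608). The 11 RNA values ran from -0.34 (Zfp592) to 0.08 (Zfp711). They depended on the first Mael+/- extract, without which they ran from -0.36 (Zfp618) to 0.19 (Zfp711), with Zfp532 at -0.14 and Zfp746 at 0.004.

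Of the 7 members known from development, Zfp568 had 62.2, 57.6 and 58.4 RNA CPM against 60.1, 62.1 and 59.6 CPM, with a log2 fold change of 0.03 ± 0.08. Zfp521, Zfp536 and Zfp516 had values of -0.05, 0.25 and 0.05, and Zfp503 and Zfp703, a related pair of transcriptional repressors, -0.08 and -0.11. Zfp750, an epidermal factor, was at 0.42 to 0.80 RNA CPM and was not tested in footprints. Zfp830, linked to splicing, had an RNA fold change of -0.05 ± 0.10. Without the first Mael+/- extract the RNA values were 0.06 for Zfp568, -0.21 for Zfp521, 0.20 for Zfp536, -0.03 for Zfp516, -0.16 for Zfp503, -0.21 for Zfp703 and 0.0007 for Zfp830, so the signs of Zfp516 and Zfp830 rested on it. Groups of all these genes overlapped in RNA.

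Within each genotype, footprints were compared with RNA to ask how densely ribosomes covered these mRNAs. The fit behind the calls compared group means and did not pair the libraries of an extract. The ratio is given as log2 of footprint CPM over RNA CPM, so 0 means that a gene took equal shares of both libraries. In Mael+/- testes 69 of 129 members, 53.5%, had a lower share of footprints than of RNA by edgeR at an adjusted p under 0.05, beside 34.3% of all 13448 genes. A higher share was called for 20 members, 15.5%, beside 23.8% of genes. In Mael-/- testes the lower calls were 67, 51.9% beside 34.8%, and the higher calls 19, 14.7% beside 23.8%. The genotypes called the same direction for 65 members lower in both (71 in either) and 18 higher in both (21 in either), and no member was called in opposite directions. The 161 genes Zfp1 to Zfp499 had like shares, with 57.4% of those tested lower and 11.8% higher in Mael+/- testes, so such shares were not limited to Zfp500 to Zfp999.

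**Figure D3:**
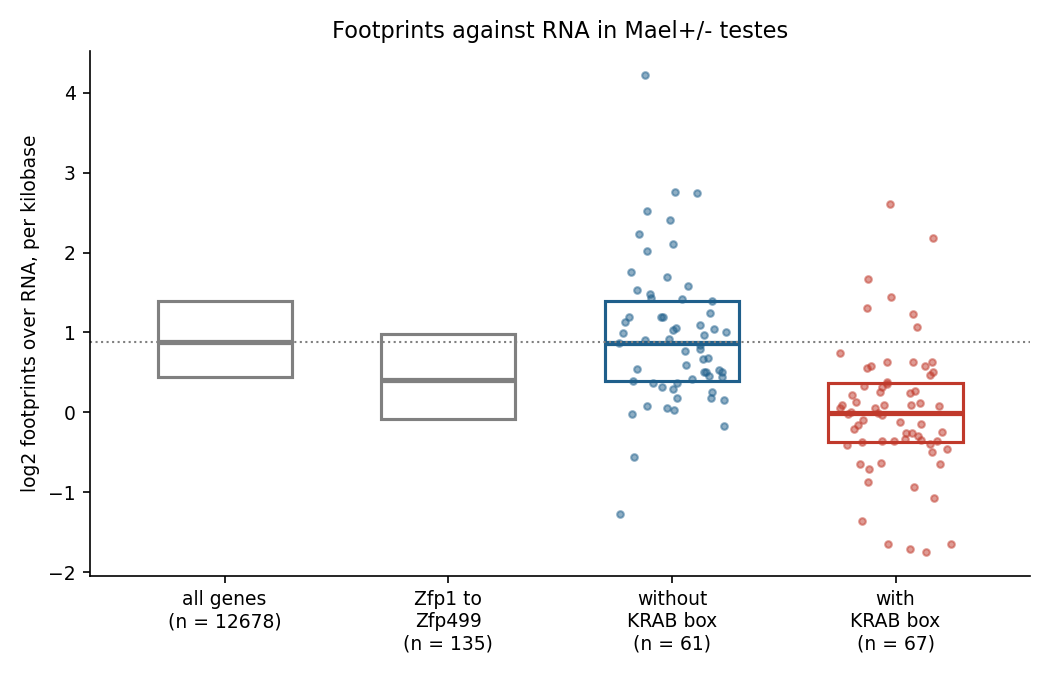
Log2 of footprints over RNA, each per kilobase, in Mael+/- testes, for all genes, Zfp1 to Zfp499, and members without and with a KRAB box. Boxes span the quartiles with a line at the median, points are members, and the dotted line is the median of all genes, 0.88. The KRAB members are centred at -0.01 and the others at 0.86.

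RNA was counted over whole mRNAs and footprints over coding sequence, so the ratio was also taken per kilobase of each. On that scale the median of the members was 0.37 in Mael+/- and 0.38 in Mael-/- testes, against 0.88 and 0.86 for all genes, and 0.41 and 0.40 for Zfp1 to Zfp499. With a mean of at least 50 counts in each assay the members' medians were 0.62 and 0.59 against 0.87 and 0.86 for all genes, a gap of 0.26 and 0.27 in place of 0.51 and 0.48. KRAB members had a median of -0.01 in Mael+/- and 0.05 in Mael-/- testes. The other members had 0.86 and 0.80, near the median of all genes. The classes lay closer together in Zfp1 to Zfp499, where 72 KRAB genes had medians of 0.31 and 0.35 and 63 others 0.59 and 0.69. Of 67 KRAB members, 60 lay below the all-gene median per kilobase in Mael+/- testes, and of 61 other members 31 did. By the test on counts, 49 KRAB members had a lower and 2 a higher share of footprints, Zfp777 and Zfp809, while 20 of the others were lower and 18 higher.

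The distance between the classes was seen in each extract. The median of members without the box exceeded that of KRAB members by 0.78, 0.93 and 0.93 (log2, per kilobase) in the Mael+/- extracts and by 0.76, 0.80 and 0.68 in the Mael-/- extracts, with means of 0.88 ± 0.09 and 0.74 ± 0.06 (SD, n = 3). The value of Mael+/- extract 1 was the lowest of its genotype and lay within the range of the Mael-/- extracts. The classes also differ in depth: with a mean of at least 50 counts in each assay, 25 KRAB and 58 other members remained and the distance was 0.56 and 0.45, and with no filter it was 1.18 and 1.08. In settings chosen after seeing the data, it was 0.79 and 0.60 per kilobase of unique sequence, 0.85 and 0.65 among genes with at least 90% unique coding sequence, and 0.82 and 0.63 for genes with at least 200 RNA counts and no filter on footprints. Medians of KRAB members stayed below those of the others in all these settings.

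**Figure D4:**
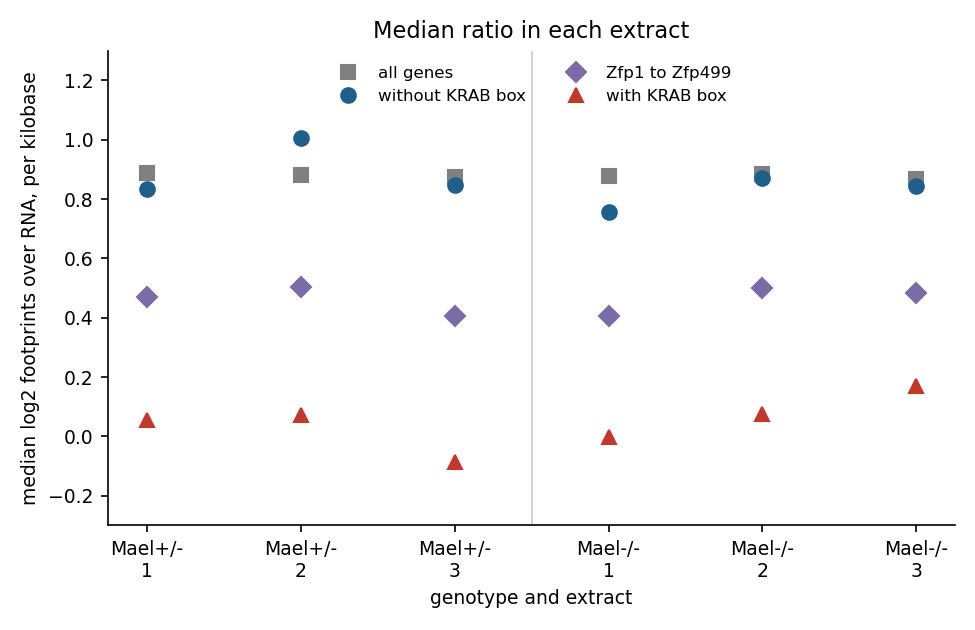
Median log2 of footprints over RNA, each per kilobase, in each of the 6 extracts (horizontal axis) for all genes (squares), members without a KRAB box (circles), Zfp1 to Zfp499 (diamonds) and KRAB members (triangles). KRAB members lie between -0.09 and 0.17 and the other members between 0.76 and 1.01.

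Members rich in GC had the higher ratios. As a description across genes, which share libraries and are not replicates, Spearman's rho of the per-kilobase ratio in Mael+/- testes with coding GC was 0.55 over 128 members and 0.05 over 12678 genes. It was 0.28 over the 67 KRAB members and 0.54 over the 61 others, and 0.40 over 135 genes of Zfp1 to Zfp499. For the ratio before lengths were taken into account, rho with coding GC was 0.56 over members and 0.10 over all genes. The 15 members of at most 40% GC had a median of -0.36, the 47 of 40 to 50% had 0.06, the 42 of 50 to 60% had 0.44 and the 24 above 60% had 1.33. In all genes the medians of these classes were 0.64, 0.86, 0.86 and 0.98. Within the class of 40 to 50% the 38 KRAB members had -0.03 and the 9 others 0.40, and within that of 50 to 60% the 12 KRAB members had 0.24 and the 30 others 0.64. GC content and class thus moved together, and their parts in the ratio were not tested.

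**Figure D5:**
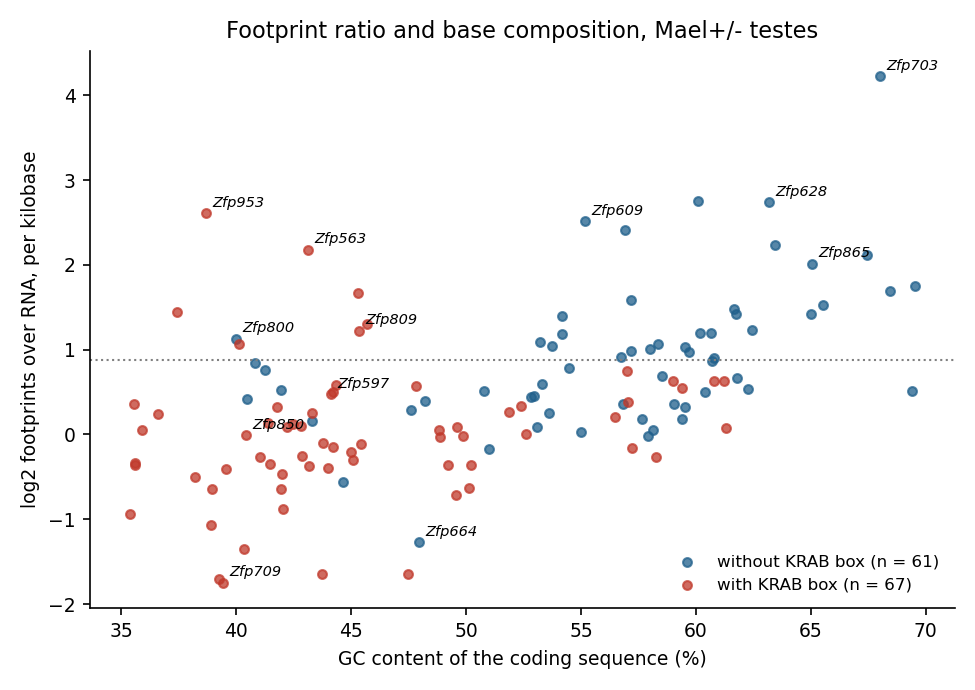
Log2 of footprints over RNA, each per kilobase, in Mael+/- testes (vertical axis) against the GC content of the coding sequence in percent (horizontal axis). Each point is a member, red with and blue without a KRAB box, and the dotted line is the median of all genes, 0.88. Members of high GC content, such as Zfp703 and Zfp628, lie mostly at or above the line, and most of those under 50% lie below it.

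At the high end of the ratio, among the 83 members with a mean of at least 50 counts in each assay, was Zfp703, a developmental repressor. It had 6.72, 8.01 and 8.35 RNA CPM and 60.5, 101 and 90.7 footprint CPM in Mael+/- extracts, a log2 ratio of 3.44 ± 0.17 (SE). The 3 footprint values all lay above the 3 RNA values, as they did in Mael-/- extracts (3.58). Zfp628 had 9.15, 10.2 and 9.29 RNA CPM and 50.1, 71.9 and 48.8 footprint CPM (2.56 ± 0.15). Zfp865, Zfp609 and Zfp579 followed, with log2 ratios from 1.70 down to 1.34. None of these 5 has a KRAB box, and their coding GC ran from 55.2% in Zfp609 to 68.4% in Zfp579. The fingers of Zfp628, Zfp865 and Zfp579 shown above come from genes that lie within the same stretch of chromosome 7.

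At the low end Zfp664 had 99.5, 83.1 and 93.2 RNA CPM and 7.33, 9.19 and 5.86 footprint CPM, a log2 ratio of -3.65 ± 0.15. Zfp740 had -2.52, Zfp704 -1.79, Zfp597 -1.69 and Zfp850 -1.67. In these 5 genes 68.4 to 87.7% of the annotated exonic sequence is not coding sequence, a part over which RNA but not footprints were counted. Per kilobase, Zfp704 stood at 1.238, Zfp597 at 0.47, Zfp740 at 0.40 and Zfp850 at -0.01, while Zfp664 kept a low value, -1.27. Over all members the rank correlation of the ratio with the noncoding share of the mRNA was -0.41, and over all genes -0.42. Among KRAB members the lowest values per kilobase were those of Zfp709 (-1.75) and the highest that of Zfp953 (2.61), both with few footprint reads.

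The first Mael+/- extract set the spread of several members beyond Zfp541. Zfp654 had 83.4, 25.9 and 42.3 RNA CPM in Mael+/- and 50.6, 47.5 and 31.3 CPM in Mael-/- extracts. Its RNA fold change was -0.23 with that extract and 0.33 without it, and its footprint fold change -0.29 and 0.17. Zfp800 had 93.9, 49.3 and 59.95 RNA CPM in Mael+/- extracts, against 63.1, 60.8 and 51.2 CPM in Mael-/- extracts. Zfp758 and Zfp770 were also higher in extract 1, by 0.89 and 0.68 (log2) over the other Mael+/- extracts in RNA. Zfp618, Zfp521, Zfp710, Zfp553 and Zfp940 were lower there, by values from -0.56 to -0.41. The 10 named here, Zfp541 included, were chosen after their values were seen, as the 5 largest deviations of that extract each way among members with a mean of at least 50 RNA counts.

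Genes of KRAB-linked silencing were followed beside the members, namely the machinery that KRAB proteins recruit and Zfp57, itself a KRAB zinc finger gene with a role in imprinting. All 25 listed genes were tested in both assays and none was called in RNA, footprints or translation efficiency, with smallest edgeR adjusted p-values of 0.939 in RNA and 0.998 in footprints. Trim28, the scaffold, had 572, 571 and 502 RNA CPM in Mael+/- and 465, 507 and 564 CPM in Mael-/- extracts, with overlap. Setdb1 had 234, 226 and 203 CPM against 237, 269 and 231 CPM. The median RNA fold change of the 25 was -0.04 (log2), with 8 above 0. Their footprint to RNA ratio in Mael+/- testes was called higher for 12 and lower for 6, beside 23.8% and 34.3% of all genes, and Zfp57 was not among those called. The median per kilobase was 0.84, beside 0.88 for all genes and -0.01 for KRAB members.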

How the data were processed

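Testes were lysed with cycloheximide, which holds ribosomes on mRNA. Part of each extract gave total RNA libraries (TruSeq Stranded, Ribo-Zero), and part was digested with MNase for footprint libraries. The authors clipped linkers and identifiers, removed ribosomal DNA reads with Bowtie 1.2.2, aligned to mm10 with STAR 2.6.0c and counted with featureCounts (Subread 1.6.4), over whole mRNAs for RNA and coding sequence for footprints. Versions are from the submitters' processing notes. Annotation version, collapsing of duplicates and treatment of reads with several genomic matches are not given in the sources used here. The deposited table holds raw counts for 20620 genes and 5138235 repeat copies, and the repeats were not used. The authors' tables of log2 fold changes, standard errors and p-values from DESeq2 1.24.0 were not used.

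Genes were fitted in edgeR 4.0.16 (R 4.3.3, limma 3.58.1) with TMM factors within each assay, the default filter on low counts, quasi-likelihood F-tests and Benjamini-Hochberg adjustment over all genes tested. Genes were called at an adjusted p under 0.05. Genotypes were compared over 6 libraries of each assay, and translation efficiency as the interaction over 12. Footprints were compared with RNA within each genotype in the same fit of 12 libraries. CPM values use totals of the genes that passed the filter in that assay and TMM factors, and means are ± SD over 3 extracts. For medians per extract and per library and for deviations of extract 1, 0.25 CPM was added before logs. Nothing says that extracts came from separate animals, so p-values measure the spread between these samples. Since duplicates may be in the counts, errors describe the deposited counts. RNA and footprints of an extract share lysate, and their deviations from the group mean correlated across 11235 genes at 0.806, 0.668 and 0.728 (Mael+/-) and 0.266, 0.293 and 0.283 (Mael-/-), so a fit with the extract as a block is given for comparisons of the assays.

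Lengths are of the union of a gene's RefSeq transcripts on GRCm38.p6. GC content, fingers and KRAB boxes are of its longest coding sequence. For counts of fingers, a finger was a C-C-H-H pattern with 2 to 4, 12 and 3 to 5 residues between. The fingers printed had 2, 12 and 3. A protein was called KRAB with at least 12 of 41 residues identical to a consensus of 203 proteins. The text names members with a listed role, up to 5 each way per assay with no overlap between genotypes and a mean of at least 20 counts, the 5 highest and lowest footprint ratios with at least 50 counts in each assay, and the 8 highest RNA levels per kilobase. The members and lists were chosen with earlier results of these data known. Alternatives were DESeq2 1.42.0, median-of-ratios size factors, TMM over all 12 libraries, no filter or at least 50 counts, and leaving out each replicate. A block was also fitted, by replicate number within an assay and by extract where assays were compared. Fits were tested on simulated counts with the same spread for every gene and no effect of the extract. That setting does not cover an extract that stands apart, as in these data. Zfp638, listed as a silencer, was not analysed here.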

Additional observations from a re-analysis of the deposited data

How the results depend on the processing

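The count of members called between genotypes was 0 in RNA, footprints and translation efficiency under every alternative tried. These were DESeq2, other size factors, other filters, a block by replicate or extract, and each replicate left out. The labels do not say that replicate numbers pair extracts between genotypes. The correlations of their deviations between genotypes were 0.29, -0.04 and 0.20 in RNA and 0.09, 0.29 and 0.06 in footprints. Those of RNA and footprints within a Mael-/- extract were 0.27, 0.29 and 0.28. With a replicate block 50 genes were called in RNA (17 without) and 23 in footprints (8 without), no member among them. Whether replicate numbers mark a shared batch was not tested. With each extract entered as a block in the fit of both assays, 73 members in each genotype had a lower share of footprints than of RNA. Without that block there were 69 in Mael+/- and 67 in Mael-/- testes. The 73 are 56.6% of members in each, beside 40.5 and 41.2% of all genes. A mean of at least 50 counts in each assay left 83 members, of which 36 and 35 were lower, that is 43.4 and 42.2% beside 36.7 and 37.1% of all genes, and fewer members were tested there by construction. The median log2 ratio of the members less that of all genes was -0.44 in Mael+/- and -0.40 in Mael-/- testes, -0.09 and -0.14 with at least 50 counts, and -0.62 and -0.56 with no filter, so its size depended on the filter while its sign did not. Depth limits KRAB members most, as 34 of 101 were not tested in footprints. Ratios per kilobase rest on all annotated transcripts of a gene, and the isoforms used in these testes were not measured.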
